A study of Mus musculus with 6 samples.

Results

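The genes described here encode receptors of selective autophagy and mitophagy. They are the 9 gene columns Sqstm1, Nbr1, Optn, Tax1bp1, Calcoco1, Bnip3, Bnip3l, Fundc1 and Pink1, taken by name from the 19060 gene columns of the deposited table. RNA came from the proximal end of the mouse incisor, where the mesenchymal stem cells of this continuously growing tooth reside. The 3 control samples came from mice with Fgfr1fl/fl, in which both copies of Fgfr1 have loxP sites, and the labels also call them wild type. The 3 mutant samples came from mice with Gli1-Cre;Fgfr1fl/fl, with the Cre given as Gli1CreER in the study's methods. Tamoxifen then removes Fgfr1 in cells that express Gli1 when it is given, and the cells that descend from them also lack it. Cells outside this lineage keep it. Tissue was taken 1 week after tamoxifen, which was given at 1 month of age. The comparison asks how the transcripts of the receptor genes differ between control and mutant incisors.

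Selective autophagy delivers chosen cargo, such as protein aggregates or damaged organelles, to the lysosome. A receptor protein binds the cargo on one side and LC3 or GABARAP proteins on the growing autophagosome membrane on the other. Soluble receptors such as p62 and NBR1 recognize ubiquitin on the cargo and are degraded along with it. Mitophagy, the removal of mitochondria, uses receptors that sit in the outer mitochondrial membrane, and a separate route in which the kinase PINK1 builds up on damaged mitochondria and marks them with phosphorylated ubiquitin. Transcript levels do not show how fast any of these proteins is degraded.

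The libraries differed in ways that touch every value below. Total estimated counts ran from 31060207 to 32712454 in controls and from 5276568 to 11819566 in mutants, so depth and genotype cannot be told apart. Some of the library tags in the sample labels recur in both groups and their meaning is not stated, so a separate sequencing run for each group cannot be told apart from genotype either. The share of genes at 0 counts was 3.83 to 3.96% in controls and 17.1 to 30.3% in mutants, with the highest share in mutant sample 1. Fgfr1, the targeted gene, had 434 to 924 CPM (counts scaled to library size, as edgeR computes it after upper-quartile scaling) in controls and 148 to 318 CPM in mutants, with a log2 fold change of -1.37 and an adjusted p of 0.0881 from edgeR's quasi-likelihood test. With the length and GC offset described below, Fgfr1 also moved towards 0, to -0.83 with an unadjusted p of 0.0218 (edgeR). It passed the threshold for a call, given below, in both fits. The 14 markers of dental mesenchyme and odontoblasts held 25331 to 68180 CPM together in controls and 22937 to 28892 CPM in mutants. Of this sum, Col1a1 alone held 18511 to 50909 CPM in controls and 16455 to 22215 CPM in mutants. Of the 14 markers, 4 had a positive log2 fold change, so the sum does not stand for each of them. The 10 dental epithelium markers together held 85401 to 121051 CPM in controls and 31734 to 69829 CPM in mutants, with none of them at 0 throughout a group and 0 of 10 called. Most of this sum came from Amelx (50951 to 66940 CPM in controls, 15184 to 42259 CPM in mutants) and Ambn (31167 to 46654 and 12680 to 23409 CPM). Of the 10 markers, 2 had a positive log2 fold change. With the same offset, 4 of the 10 (Krt14, Amelx, Ambn and Enam) were called lower and 0 higher, when 14.6% of all genes were called. The 15 skeletal muscle markers together held 12.8, 3720 and 37.6 CPM in control samples 1, 2 and 3 and 8634, 220 and 1366 CPM in mutant samples 1, 2 and 3, so control sample 2 and mutant sample 1 stood apart within their groups. In whole tissue, fewer cells of a type and less RNA per cell cannot be told apart.

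All 9 receptor genes passed the filter on low counts and were tested among 15826 genes. A gene was called when its unadjusted p was under 0.05 and its change over 1.5-fold, the threshold the study used. Nbr1 was lower and Fundc1 was higher in mutants, which made 2 of 9 genes called (22.2%), close to the 19.8% called among all genes tested, where 10.9% were higher and 8.92% lower. No receptor gene had a p under 0.05 after adjustment over all genes, by edgeR, DESeq2 or limma-voom, against 6.79% of all genes in edgeR, and the adjusted p in edgeR ran from 0.204 to 0.962. The groups did not overlap for Nbr1 and Bnip3l, 2 of 9 genes (22.2%), against 30.4% of all genes tested. The median log2 fold change of the 9 genes was -0.12, beside -0.040 for all genes tested. With the control counts thinned to the mean total of the mutant samples, 0 of 9 were called by edgeR, beside 2664 of 14495 genes tested. Nbr1 then had a log2 fold change of -0.60 and Fundc1 of 0.88. Control sample 2 was the highest control for the summed muscle markers and for the summed mesenchyme and odontoblast markers (68180 CPM). Among controls it was the lowest for Bnip3, Bnip3l and Fundc1 and the highest for Nbr1, Optn, Tax1bp1 and Calcoco1. Mutant sample 1, with the highest muscle marker level, was the highest mutant for Bnip3. It was the lowest mutant for Bnip3l, Fundc1, Nbr1, Optn and Tax1bp1, and lay between the others for Calcoco1. The part of muscle, mesenchymal or epithelial content in the receptor levels was not tested.

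**Figure D1:**
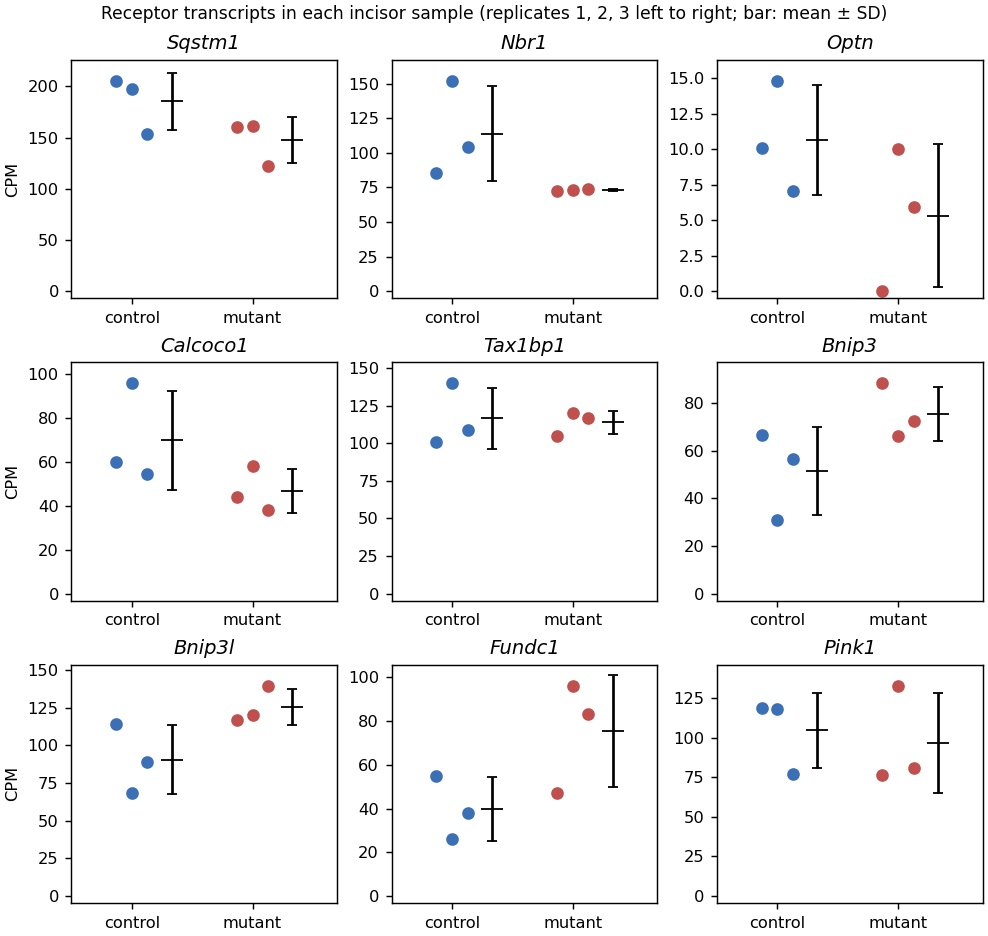
Level of each receptor gene in CPM (y axis, linear, with 0 included) in the 3 control and the 3 mutant samples; each point is a sample and the black bar is the mean ± SD of its group. The mutant points of Nbr1 all lie between 72.7 and 73.9 CPM, below the lowest control sample at 85.3 CPM, and those of Bnip3l all lie above the highest control sample.

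Among the ubiquitin-binding receptors, Nbr1 was lower in mutants, and Sqstm1, Optn and Tax1bp1 overlapped between the groups. Nbr1 encodes a receptor of protein aggregates and peroxisomes that works together with p62. It lies on chromosome 11 of GRCm38 from 101552149 to 101581951, on the plus strand. Its level was 85.3, 151.8 and 103.8 CPM in control samples 1, 2 and 3 and 72.7, 73.1 and 73.9 CPM in mutant samples 1, 2 and 3. The mutant samples were nearly equal, and the control samples spread widely, with control sample 2 highest. The log2 fold change was -0.63 with a standard error of 0.26, an adjusted p of 0.219 and an unadjusted p of 0.0397 (edgeR's quasi-likelihood test). Without control sample 2 it was -0.37 with an unadjusted p of 0.130, also by edgeR, and the gene was no longer called. Leaving out any one of 5 of the 6 samples removed this call, control sample 1 being the exception, while the log2 fold change was negative under each setting tried.

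Sqstm1 encodes p62, the receptor that collects ubiquitinated proteins into condensates and is itself consumed by autophagy. It lies on chromosome 11 from 50199366 to 50210827 on the minus strand and shares 750 bases with Mrnip on the opposite strand. Its level was 205, 198 and 153 CPM in controls and 160, 161 and 122 CPM in mutants. Control sample 3 lay below mutant samples 1 and 2, so the groups overlapped. The log2 fold change was -0.33 with a standard error of 0.24, and the adjusted p was 0.525 (edgeR). With total counts in place of upper-quartile scaling it was -0.59 and passed the threshold for a call. Mrnip held 1.17 to 2.36% as many counts as Sqstm1 in controls and 0 to 1.48% in mutants, and the strand used for counting is not given in the sources used here.

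Tax1bp1 encodes a receptor that binds ubiquitin and takes part in clearing aggregates and in ending inflammatory signaling. Its position is chromosome 6 from 52713729 to 52766780, on the plus strand. The level was 100.8, 139.8 and 108.9 CPM in controls and 105.0, 120.0 and 116.5 CPM in mutants, with all mutant values inside the control range. Its log2 fold change was -0.033 with a standard error of 0.22.

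Optn encodes optineurin, which binds ubiquitin on bacteria and on damaged mitochondria and is phosphorylated by the kinase TBK1. The gene lies on chromosome 2 from 5020642 to 5064051 on the minus strand. It had 345, 538 and 245 counts in controls and 0, 117 and 59 counts in mutants. These corresponded to 10.1, 14.8 and 7.08 CPM in controls and 0, 9.99 and 5.95 CPM in mutants. The 0 of mutant sample 1, the shallowest library, allows up to 0.655 CPM, for counting error only, and still lay below every other sample. The log2 fold change was -0.98 with a standard error of 1.19 and an adjusted p of 0.733 (edgeR), and it was -0.43 without mutant sample 1. Tbk1 was also at 0 counts in mutant sample 1, beside 163 and 81 counts in the other mutant samples and 489 to 525 in controls.

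Calcoco1 encodes a receptor that brings parts of the endoplasmic reticulum and Golgi to autophagosomes, and is also known as a transcriptional coactivator. It lies on chromosome 15 from 102706777 to 102722178 on the minus strand. Its level was 59.8, 95.7 and 54.2 CPM in controls and 43.9, 58.0 and 38.3 CPM in mutants. Mutant sample 2 lay above control sample 3, and control sample 2 was again the highest. The log2 fold change of -0.58 (standard error 0.30) had an adjusted p of 0.338 (edgeR), and it was -0.29 without control sample 2.

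The 3 receptors of the outer mitochondrial membrane, Bnip3, Bnip3l and Fundc1, all had higher means in mutants, and of these Fundc1 was called. FUNDC1 is a receptor whose binding to LC3 is switched by phosphorylation when oxygen falls. Its gene lies on the X chromosome from 17556564 to 17572325 on the minus strand. Fundc1 had 55.1, 26.2 and 37.9 CPM in controls and 46.9, 96.1 and 83.2 CPM in mutants. Mutant samples 2 and 3 lay above all control samples, and mutant sample 1 lay below control sample 1. The log2 fold change was 0.93 with a standard error of 0.37, an adjusted p of 0.204 and an unadjusted p of 0.0350 (edgeR). Leaving out control sample 2 or 3, or mutant sample 2 or 3, ended the call, with values from 0.70 to 0.89.

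Bnip3l, also known as Nix, encodes the receptor that clears mitochondria from maturing red blood cells. It lies on chromosome 14 from 66985239 to 67008877 on the minus strand. Levels were 114.1, 68.2 and 89.1 CPM in controls and 117.0, 120.1 and 139.4 CPM in mutants. The groups did not overlap, but mutant sample 1 and control sample 1 were close together. Its log2 fold change of 0.47 (standard error 0.25) had an adjusted p of 0.354 and an unadjusted p of 0.0964 (edgeR), and without control sample 1 it was 0.67 and the gene was called. Of 6 erythroid markers tested, Hba-a2 and Hbb-bs were called higher and Hba-a1 lower in mutants (50%, against 19.8% of all genes). The groups overlapped for Hba-a2. With the length and GC offset 0 were higher and 1 lower (Hba-a1, at -3.08), when 14.6% of all genes were called. Hba-a2 then had -0.19 and Hbb-bs 0.37. The globin genes come in near-identical copies, so their reads can be split between them. Of the 11 erythroid markers in the table, 4 were at 0 in every mutant sample, and the markers tested together held 380 to 833 CPM in controls and 926 to 2560 CPM in mutants. Their part in the level of Bnip3l was not tested.

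BNIP3 is the relative of NIX that hypoxia-inducible factor (HIF) induces when oxygen is low. The gene lies on chromosome 7 from 138890836 to 138909519 on the minus strand. It had 66.7, 30.9 and 56.6 CPM in controls and 88.2, 66.0 and 72.3 CPM in mutants. Control sample 2 was far below the others, and mutant sample 2 lay just under control sample 1, so the groups overlapped. Its log2 fold change of 0.55 (standard error 0.32) had an adjusted p of 0.389 (edgeR). Without control sample 2 it was 0.29.

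Bnip3 and Bnip3l are uncertain for another reason. Bnip3 has 2 copies in the table, the noncoding gene AC160336.1 with 98.2% identity over 858 bases and the processed pseudogene Gm16439 with 98.9% identity over 564 bases. Together they held 12.4 to 21.7% as many counts as Bnip3 in controls and 43.3, 7.24 and 25.5% in mutant samples 1, 2 and 3. The copy of Bnip3l, Bnip3l-ps, is 99.2% identical over 663 bases and held 1.12 to 5.97% as many counts as its parent over all samples. Adding the counts of the copies, an alternative chosen after seeing the data, gave log2 fold changes of 0.66 for Bnip3 and 0.48 for Bnip3l.

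The start of Bnip3 is shown because HIF binds DNA at a short core, and 3 members carry the letters ACGTG, the only form of the core that was searched. RefSeq promoters on GRCm38.p6, from 250 bases before to 50 bases after each start site, were given for 8 of the 9 genes, all but Bnip3l. The letters ACGTG, searched on both strands, were found for Bnip3, Nbr1 and Tax1bp1, and in 19.6% of 32851 promoters of this length. Nbr1 and Tax1bp1 have 2 promoter entries each, so matches per gene and the share per promoter differ in unit. The palindrome CACGTG, an E-box that contains ACGTG and that also forms the centre of the CLEAR element bound by TFEB, was found in Bnip3 alone among the members and in 7.15% of all promoters. The antioxidant response core TGACNNNGC, searched because NRF2 acts on Sqstm1, was found in this window for Tax1bp1 alone and in 12.4% of all promoters. Sites farther from the start were not searched, so a site of Sqstm1 outside the window would be missed. Capitals mark the E-box in Bnip3 and the core, which reads CACGT on the strand shown, in Nbr1. The stretch of Bnip3 lies at chr7:138909581-138909642 on the minus strand and that of Nbr1 at chr11:101551940-101552000 on the plus strand.
Bnip3: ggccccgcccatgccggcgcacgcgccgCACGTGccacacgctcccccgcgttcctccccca
Nbr1: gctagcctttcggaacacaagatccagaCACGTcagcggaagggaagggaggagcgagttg
The E-box of Bnip3 starts 108 bases before the start site and the core of Nbr1 starts 139 bases before it. Bnip3 and Nbr1 differed in direction, with log2 fold changes of 0.55 and -0.63. These letters were read from the reference and say nothing about binding in the incisor.

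Pink1 encodes the kinase that marks damaged mitochondria with phosphorylated ubiquitin, and it is counted here with the receptors although it binds no LC3 itself. It lies on chromosome 4 from 138313409 to 138326307 on the minus strand. Its level was 118.5, 118.3 and 77.3 CPM in controls and 76.4, 132.7 and 80.5 CPM in mutants. Mutant sample 2 was the highest and mutant sample 1 the lowest of all 6. The log2 fold change was -0.12 with a standard error of 0.30.

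Levels of different genes were compared as CPM per kilobase of the longest transcript. In the control samples Sqstm1 was highest, at 69.3 ± 10.5 CPM per kilobase (SD, n = 3), followed by Pink1 at 44.1 ± 9.99 and Tax1bp1 at 35.5 ± 6.26. Bnip3, Bnip3l, Nbr1, Calcoco1 and Fundc1 then lay between 20.05 and 29.3 CPM per kilobase, and Optn was lowest at 4.07 ± 1.49. Only the steps from Sqstm1 to Pink1 and from Fundc1 to Optn were free of overlap between samples, and every other pair of neighbours in this order overlapped. In the mutant samples Sqstm1 remained first at 55.3 ± 8.36 CPM per kilobase, and its range met that of Bnip3, at 43.0 ± 6.51. Fundc1 had 38.0 ± 12.9 CPM per kilobase and Nbr1 had 15.3 ± 0.126. There the steps from Tax1bp1 to Calcoco1 and from Nbr1 to Optn were free of overlap.

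The make-up of the receptor transcripts within a sample does not depend on how samples are scaled to each other. As a share of the 9 genes' summed counts per kilobase, the mitophagy genes Bnip3, Bnip3l, Fundc1 and Pink1 together held 50.2, 35.3 and 45.5% in controls and 53.8, 56.9 and 58.8% in mutants. Every mutant sample lay above every control sample, and the means differed by 12.8 percentage points (two-sided exact permutation test, p = 0.1, which is as low as groups of 3 and 3 can reach). Without control sample 2 the difference was 8.63 points. Sqstm1 held 25.6, 25.7 and 23.4% in controls and 22.7, 19.2 and 16.8% in mutants, and did not overlap between the groups. Nbr1 had mean shares of 8.61% and 5.43% and Calcoco1 of 8.47% and 5.52% in controls and mutants, also without overlap, and Bnip3l had 10.05% and 13.7% (exact permutation test, two-sided, p = 0.1 for each of the 4 genes, before any adjustment over 9 genes). The shares of the 9 genes sum to 100, so they do not vary independently.

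**Figure D2:**
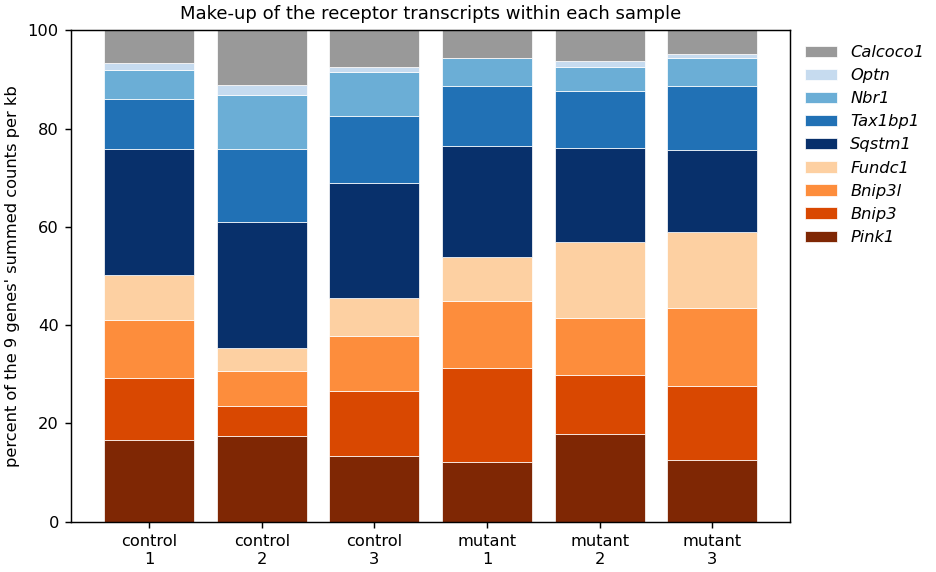
Share of each receptor gene in the 9 genes' summed counts per kilobase (y axis, percent) in each control and mutant sample; orange and brown segments are the mitophagy genes and blue and grey segments the cargo receptors. The orange and brown segments reach 35.3 to 50.2% in controls and 53.8 to 58.8% in mutants.

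Fold changes across the whole series moved with the base composition and length of the transcripts, and the receptor genes lie far apart on both. Among the protein-coding genes averaging 50 counts or more, the median log2 fold change was 0.53 where GC content was up to 42% and -0.37 where it was over 54%. By length, it was 0.32 for transcripts up to 2 kilobases and -0.25 for those from 3 to 4 kilobases. Fundc1, with 38.8% GC and 1.98 kilobases, Bnip3, with 41.6% and 1.76 kilobases, and Bnip3l, with 41.9% and 3.26 kilobases, lie at the end of the GC range where genes were higher in mutants. Sqstm1, with 54.02% GC, Calcoco1, with 57.7%, and Pink1, with 59.0%, lie at the other end. Tax1bp1 has 42.2% GC and Nbr1 47.7%.

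**Figure D3:**
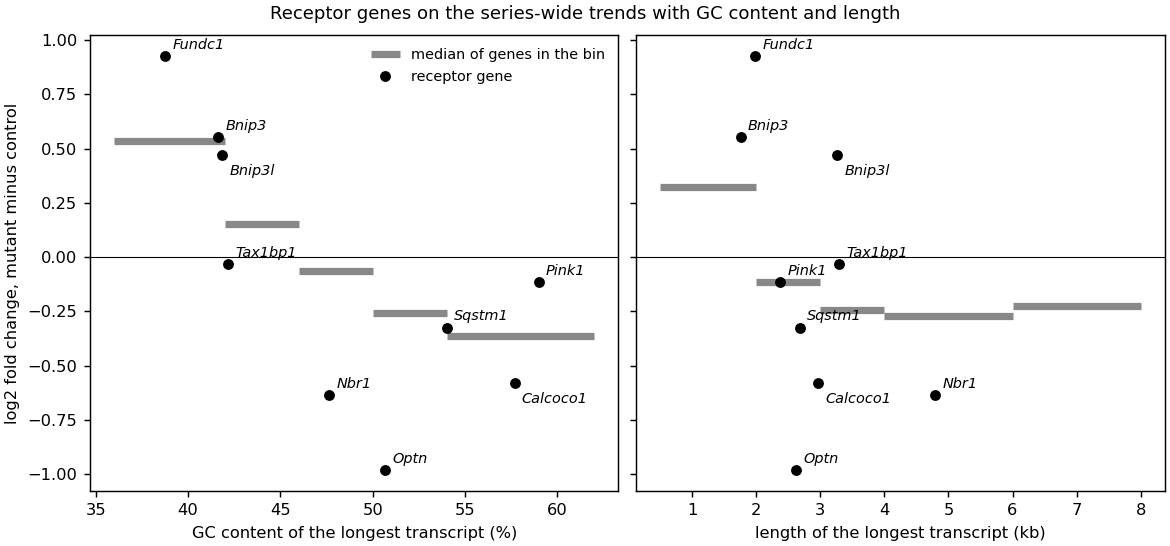
Log2 fold change of each receptor gene (black points) against the GC content (left, percent) and length (right, kilobases) of its longest transcript; grey bars are medians over protein-coding genes in each bin, and the outermost bins are open-ended. Fundc1, Bnip3 and Bnip3l have GC content up to 41.9%, in the bin whose median is 0.53.

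When a smooth term for transcript length and GC content was put in as an offset for each sample, no receptor gene was called, against 14.6% of the genes tested in that fit. Nbr1 kept an unadjusted p of 0.0443 (edgeR) with a log2 fold change of -0.47, which is under 1.5-fold. Fundc1 went from 0.93 to -0.16 and Bnip3 from 0.55 to -0.36, so both turned direction. Bnip3l went from 0.47 to 0.027, Calcoco1 from -0.58 to -0.12 and Sqstm1 from -0.33 to -0.079. Tax1bp1 moved the other way, from -0.033 to -0.48, and Pink1 from -0.12 to 0.25. With the levels taken after this offset, the mitophagy genes held 48.1 ± 5.46% of the receptor transcripts in controls and 51.4 ± 3.28% in mutants (SD, with n = 3), a difference of 3.37 points (exact permutation test, two-sided, p = 0.500).

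**Figure D4:**
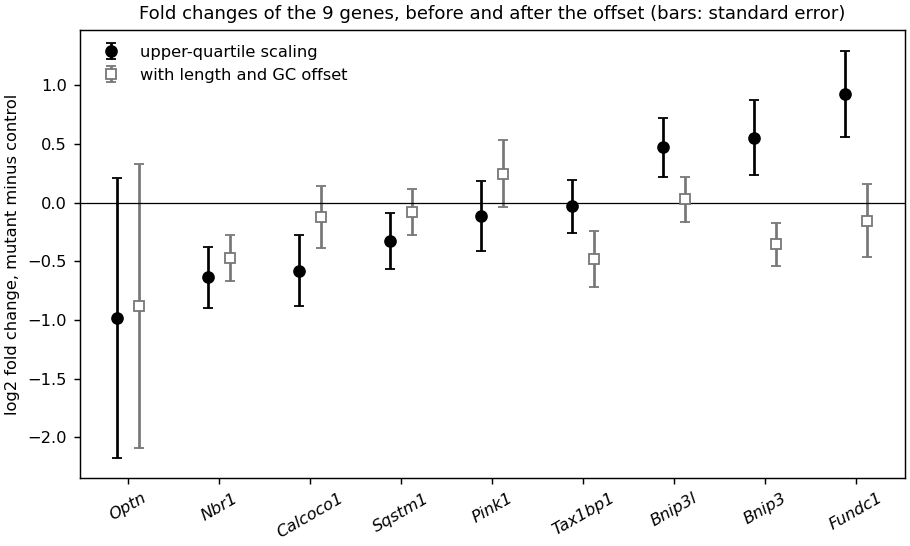
Log2 fold change of each receptor gene, mutant minus control, with upper-quartile scaling (filled circles) and with the length and GC offset (open squares); bars are standard errors. Fundc1 moves from 0.93 to -0.16 and Bnip3 from 0.55 to -0.36, while Nbr1 stays below 0 at -0.63 and -0.47.

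Other genes of the same routes were read from the same fit as 6 lists. Over the lists, 32 of 116 genes tested were called (27.6%, against 19.8% of all genes), 14 higher and 18 lower in mutants. This split depended on the scaling, with 13 higher and 23 lower by edgeR's TMM, when 1518 of all genes were higher and 1733 lower. Scaling by library totals alone gave 9 higher and 31 lower, when 1253 of all genes were higher and 2335 lower. It shifted the median over all genes from -0.040 to -0.30. With the length and GC offset, 6 were higher and 16 lower, when 14.6% of all genes were called.

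Of 22 further cargo receptors, 6 were lower and 1 higher (31.8%, against 19.8% of all genes), with a median log2 fold change of -0.33, beside -0.040 for all genes tested. With the length and GC offset 1 was lower (Ncoa4) and 0 were higher by edgeR, when 14.6% of all genes were called. Ncoa4, the receptor that delivers ferritin to the lysosome to release iron, had 86.8 ± 7.18 CPM in controls and 47.2 ± 4.52 CPM in mutants (SD, with n = 3). Its log2 fold change was -0.88 with an adjusted p of 0.0482 (edgeR), and -1.07 with the length and GC offset. Retreg2, an endoplasmic reticulum receptor, fell by 0.71 on the log2 scale with an adjusted p of 0.0951 (edgeR), and had -0.35 with the offset. Fundc2, the paralog of Fundc1, had 100.8, 46.8 and 64.1 CPM in controls and 244.7, 192.6 and 161.5 CPM in mutants, a log2 fold change of 1.4995 with an adjusted p of 0.0464 (edgeR), and 0.37 with the offset. Calcoco2, which encodes NDP52, was not analysed here.

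In the list of the PINK1 axis and mitophagy regulators, 7 of 28 genes were higher and 1 lower, with a median log2 fold change of -0.087, while 10.9% of all genes were higher and 8.92% lower. With the offset 2 were higher (Tomm20 and Ppp6c) and 2 lower (Usp15 and Vdac1), when 14.6% of all genes were called. Parl, the inner-membrane protease that cleaves PINK1, had 38.3 ± 9.43 CPM in controls and 96.2 ± 14.6 CPM in mutants (SD, with n = 3), a log2 fold change of 1.33 with an adjusted p of 0.0445 (edgeR). Ppp6c, a phosphatase subunit, was higher by 1.44 with an adjusted p of 0.0423 (edgeR). With the offset, Parl had 0.53 and Ppp6c 0.69. The other genes called higher, named after their values were seen, were Tomm7, Tomm20, Tomm22, Tomm70a and Timm23, with log2 fold changes from 0.82 to 1.72. With the offset these were 0.55, 0.92, 0.35, 0.36 and 0.22. Tomm40, which encodes the channel of the outer-membrane import machinery, had -0.61 and was not called, at an unadjusted p of 0.0552 (edgeR). Mfn2, an outer-membrane fusion protein that PINK1 phosphorylates, had a log2 fold change of -0.60 and was called lower, and had -0.16 with the offset, no longer called.

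**Figure D5:**
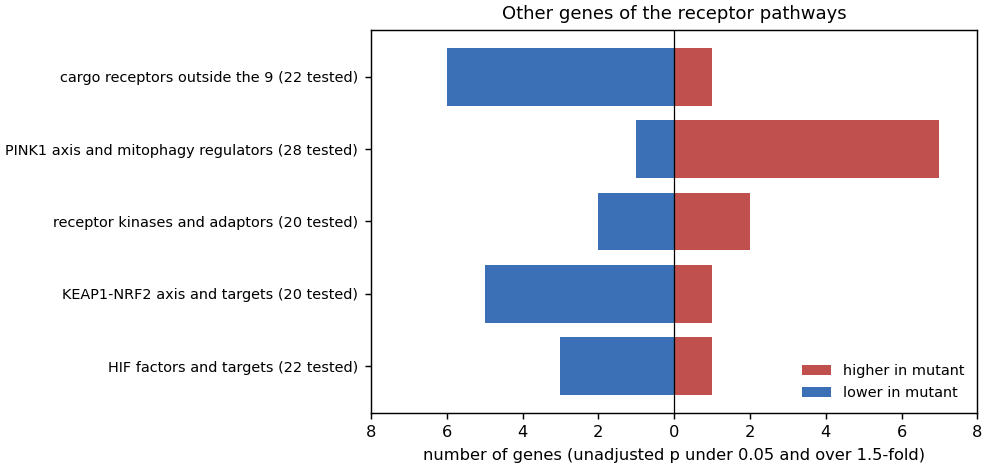
Number of genes in each of 5 of the 6 lists that were higher (red, to the right) or lower (blue, to the left) in mutants at an unadjusted p under 0.05 and over 1.5-fold; the number tested stands beside each name. The counts are those without the length and GC offset; the cargo receptors outside the 9 show 6 lower and 1 higher, and the list of the PINK1 axis shows 7 higher and 1 lower.

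Among 20 kinases and adaptors of the receptors, 2 were higher and 2 lower (20%, against 19.8% of all genes), with a median of -0.13. With the offset 0 were higher and 4 lower (Tnfaip3, Csnk2b, Prkci and Itch) by edgeR, when 14.6% of all genes were called. Ulk1, which starts autophagy and phosphorylates FUNDC1, was lower, with a log2 fold change of -1.01 and an adjusted p of 0.159 (edgeR), and it had -0.34 with the offset, no longer called. Tnfaip3, which encodes an enzyme that edits ubiquitin chains, was also called lower, with 152, 207 and 161 counts in controls and 0, 0 and 2 counts in mutants. Ube2n, a ubiquitin-conjugating enzyme, and Tank, a TBK1 adaptor, were higher by 1.00 and 0.72 on the log2 scale. With the offset neither was called, Ube2n having 0.47 and Tank -0.24, the opposite direction. Tbk1 itself had 14.2, 14.4 and 14.5 CPM in controls and 0, 13.9 and 8.16 CPM in mutants and was not called, at an unadjusted p of 0.424 (edgeR).

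p62 holds KEAP1 and thereby releases the transcription factor NRF2, which in turn acts on Sqstm1. Keap1 had 50.6 ± 2.05 and 54.9 ± 18.7 CPM and Nfe2l2, which encodes NRF2, had 56.5 ± 11.9 and 42.5 ± 18.5 CPM in controls and mutants (SD, with n = 3), and neither was called. Of the 20 genes of this list, 5 were lower and 1 higher (30%, against 19.8% of all genes), with a median of -0.060. With the offset 3 were lower (Slc7a11, G6pdx and Taldo1) and 1 higher (Gsr), when 14.6% of all genes were called. Taldo1, an enzyme of the pentose phosphate pathway, had 113, 75.1 and 101 CPM in controls and 46.9, 47.9 and 43.1 CPM in mutants, with an adjusted p of 0.0464 (edgeR). G6pdx, the first enzyme of that pathway, and Slc7a11, the cystine transporter, fell by 1.01 and 2.01 on the log2 scale. Txnrd1, a thioredoxin reductase, and Mafg, the DNA-binding partner of NRF2, fell by 0.62 and 1.01, and Txn1, thioredoxin itself, was higher by 1.01. With the offset the log2 fold change was -0.040 for Txn1, -0.50 for Mafg and -0.45 for Txnrd1, none of them called, while G6pdx had -0.81, Taldo1 -1.45 and Slc7a11 -2.66.

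Bnip3 and Bnip3l are known targets of HIF, so other HIF factors and targets were read beside them. Of 22 tested, 3 were lower and 1 higher (18.2%, close to the 19.8% of all genes), with a median log2 fold change of -0.39. With the offset 5 were lower (Hif1a, Arnt, Ndrg1, P4ha1 and P4ha2) and 2 higher (Egln2 and Higd1a), when 14.6% of all genes were called. Hif1a had 107 ± 21.3 CPM in controls and 90.3 ± 19.9 CPM in mutants (SD, with n = 3), with overlapping groups, and was not called, while with the offset it had -0.64 and was called. Ndrg1, a stress-response gene, had a log2 fold change of -1.42 with an adjusted p of 0.0391 (edgeR), while Arnt, the partner of HIF-1α, and P4ha2, a collagen prolyl hydroxylase, fell by 0.72 and 0.74. Higd1a, a mitochondrial protein, was higher by 1.11 and kept 1.15 with the offset.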

How the data were processed

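Per the labels and the study's methods, the authors trimmed single-end reads and aligned them with Partek Flow to the mm10 build, which is GRCm38. The deposited estimated counts are per gene and not normalized. The submitters' processing notes also name TopHat2 2.0.8. The annotation and the counting model are not given in the sources used here, nor is strand. A deposited table of the authors' own comparison (p-values, ratios and group means) was not used. Counts were rounded to whole numbers and fitted in edgeR 4.0.16 (R 4.3.3) with upper-quartile scaling, the default filter (minimum count 10, minimum total 15), no term besides genotype, and the quasi-likelihood test (two-sided), whose p-values were adjusted over all genes by Benjamini-Hochberg. Dividing each log2 fold change by the root of F gave its standard error. The alternatives included DESeq2 1.42.0 and limma 3.58.1. Transcript lengths and GC content came from the longest GENCODE M21 transcript, with 230 of 19060 symbols unmatched. The length and GC offset was a spline with 5 degrees of freedom for each, fitted on protein-coding genes averaging 50 counts or more. A count of 0 allows up to 3 counts, 0.0825 to 0.0874 CPM in control and 0.256 to 0.655 CPM in mutant samples, for counting error only.

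The members and gene lists were chosen with earlier results of these data known. The rule for named genes took all 9 members, Fgfr1, and from each list up to 2 genes higher and 2 lower with the smallest p, every gene of a count of 5 or fewer, and Calcoco2, Keap1, Nfe2l2, Hif1a and Tbk1 whatever their values. The ubiquitin gene list enters the counts over the 6 lists, but its genes and 1 further gene of the rule are not reported here. The labels number the samples without saying that each is 1 mouse, so p-values measure the spread between these samples, which may be technical. Of the other lists of cell type markers, the macrophage, endothelial and Schwann cell lists had 0 genes called by edgeR at the unadjusted threshold, against 19.8% of all genes. With the length and GC offset the Schwann cell list had 1 higher (Mbp) and 1 lower (Pmp22), when 14.6% of all genes were called. The mesenchyme and odontoblast list had 2 of 14 lower (Axin2 and Col1a2), when 8.92% of all genes were lower. With the offset these had -0.74 and -0.48 and were not called. The neuronal list, with 3 of its 8 markers tested, had 2 lower (66.7%), Calca and Avil, both at 0 in every mutant sample. Calca had 32, 18 and 20 counts and Avil 58, 82 and 100 counts in control samples 1, 2 and 3. The control mean of Calca, 0.668 CPM, lies near the 0.655 CPM that a 0 allows in mutant sample 1.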

Additional observations from a re-analysis of the deposited data

How the results depend on the processing

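Of the receptor genes, 2 were called in the main fit, beside 3137 of 15826 genes tested. With edgeR's TMM 1 was called (Nbr1, Fundc1 having 0.84), beside 3251 of all genes, and with limma-voom 1 (Fundc1), beside 3769. Total counts only gave 3 (Nbr1, Sqstm1 and Calcoco1, all lower, Fundc1 having 0.69), beside 3588, and the replicate block gave 3, beside 2743. With control counts thinned to the mutants' mean total 0 were called, beside 2664 of 14495 genes. With the length and GC offset 0 were called, beside 2295 of 15718. The labels do not say that the replicate numbers mark a shared batch. The study's methods mention 3 pairs of samples for sequencing, without saying which samples were paired. Deviations of same-numbered samples correlated at 0.0472, 0.00937 and 0.0548. These values are low, although each sample correlated best with its own number, as a hint from the data and not the design. Whether the numbers mark pairs is therefore not settled. Bnip3 was the gene added under the block, at 0.62. Leaving out 1 sample at a time gave 0 to 3 called receptor genes, 0 without control sample 2 or 3 or mutant sample 2 or 3. Over all genes, 2006 to 4732 were called in these fits. Without both control sample 2 and mutant sample 1, chosen after seeing the data, 1 was called, Fundc1, beside 3375 of 16168 genes tested. The direction reversed with the length and GC offset for Bnip3 (-0.36), Fundc1 (-0.16) and Pink1 (0.25). Without both samples it reversed for Tax1bp1 (0.17) and Pink1 (0.12). With 1 sample left out, Tax1bp1 ran from -0.13 to 0.12 (0.0056 without mutant sample 1) and Pink1 from -0.43 to 0.011. Sqstm1, Nbr1, Optn and Calcoco1 were negative and Bnip3l positive in all 20 fits. The causes were not tested. The mitophagy share kept its direction under each setting tried, from 3.37 to 16.2 points, and ran from 8.63 to 16.1 points with 1 sample left out. The 32 called genes of the other lists became 20 to 31 with 1 sample left out, the fewest without control sample 3. The number called over all genes was also lowest there, at 2006 of 15600. Optn had at most 117 counts in a mutant sample, and the standard error of its log2 fold change was 1.19 with all samples and 0.52 without mutant sample 1.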
